A study of Mus musculus and Rattus norvegicus with 43 samples.

Results

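Voltage-gated sodium and calcium channels, the sodium leak channel and the HCN channels were followed in the striatum of mice injected at birth with miRNAs against Taf1. The 30 genes were taken by symbol, and all 30 had a row among the 54532 gene rows of the mouse count table. Taf1 encodes a subunit of the general transcription factor TFIID. The labels name 3 injection groups, and the series title speaks of Taf1 isoforms. The CN group received the C/N-TAF miRNA (5 mice), the N group the N-TAF miRNA (8 mice) and the control group a control miRNA (8 mice). All were C57BL/6 mice injected at postnatal day 0, and RNA of the striatum of one hemisphere was sequenced at 4 months of age. The sources used here do not name the vector, the promoter or the cells that took up the miRNA. Every mouse description ends in the same letters, Ct, whatever the injection label, so the groups rest on the injection label alone. A further mouse whose label names no injection entered no comparison, and the rats of the series were not used here.

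A voltage-gated sodium channel consists of a large pore-forming alpha subunit with accessory beta subunits, and it carries the rising phase of the action potential. A calcium channel has a pore-forming alpha1 subunit. Outside the low-threshold T-type, it also has an intracellular beta subunit that brings it to the membrane and an extracellular alpha2delta subunit. Calcium channels couple depolarisation to transmitter release, to burst firing or to gene expression. HCN channels open on hyperpolarisation and bind cyclic nucleotides, and the sodium leak channel, which works with large auxiliary proteins, helps to set the resting potential. Spiny projection neurons make up most of the neurons of the striatum and sit at a hyperpolarised resting potential, which these channels and potassium channels shape.

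Libraries held 26696471 to 35585689 counts in the CN group, 25351442 to 30907625 in the N group and 24876988 to 32991639 in the control group. Values are CPM, the read count of a gene scaled to the TMM-adjusted size of its library, and log2 fold changes come from edgeR's quasi-likelihood test fitted over all genes, called at an adjusted p under 0.05. Of all genes, 19413 were abundant enough to be tested, among them all 30 channel genes. Taf1 itself averaged 90.7 ± 22.6 CPM in the CN group (SD, n = 5), 97.5 ± 6.20 CPM in the N group (SD, n = 8) and 98.6 ± 5.52 CPM in the control group (SD, n = 8). The CN value was 101 ± 3.74 CPM without library 2 (SD, n = 4), so total Taf1 counts, which add up all transcripts of the gene, did not separate the labelled groups. The striatal identity was clear: 12 spiny neuron markers summed to between 9340 and 13270 CPM in every library of a group, and none of the 12 was at 0. CN library 2 stood apart and is described first, since it decided several results.

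In CN library 2 most channel genes lay low, and the longer ones mostly lower than the shorter ones. Across its genes, the deviation from the mean of all 21 libraries, itself included, correlated with exon length at a Spearman rho of -0.37. The other libraries had -0.20 to 0.31, and each rho is a description across genes of 1 library. The channel genes are long: 22 of the 30 had 7000 exon bases or more. Those 22 had a median log2 ratio of -0.94 in CN library 2 over the mean of the other 4 CN libraries, and the 8 shorter ones a median of -0.19. Scn9a was lowest at -1.75 and Hcn2, the shortest of the 30 at 3195 exon bases, highest at 0.47. Over the 30 genes the rho of this ratio with length was -0.74, and the median was -0.77. Some genes left this order. Cacna2d4, Cacna1g and Cacna2d3, among the 22, lay at 0.052, 0.031 and -0.093, and Hcn4, among the 8, at -0.77. The library was the lowest of the CN group in 22 of the 30 and below every control library in 24. Other long genes also lay low, though less far than the long channel genes. The 3533 genes of that length outside the list had a median of -0.57, and 83.9% of them lay below 0. The 11811 shorter genes had a median of 0.20. A correction for length in each library brought the medians of the channel genes to -0.20 for the long and -0.21 for the short ones. Summed cell type markers of CN library 2 also left the range of the other 4 CN libraries. Interneuron markers other than cholinergic summed to 628 CPM (249.5 to 333 in the others), cortical and hippocampal excitatory markers to 534 (325 to 364.5) and astrocyte markers to 3276 (4107 to 4807). Spiny neuron markers, at 12730 CPM, lay within 10630 to 13270. The part of cell makeup in this library was not tested. Fold changes of channel genes in the CN group are therefore given with all libraries and without CN library 2.

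**Figure D1:**
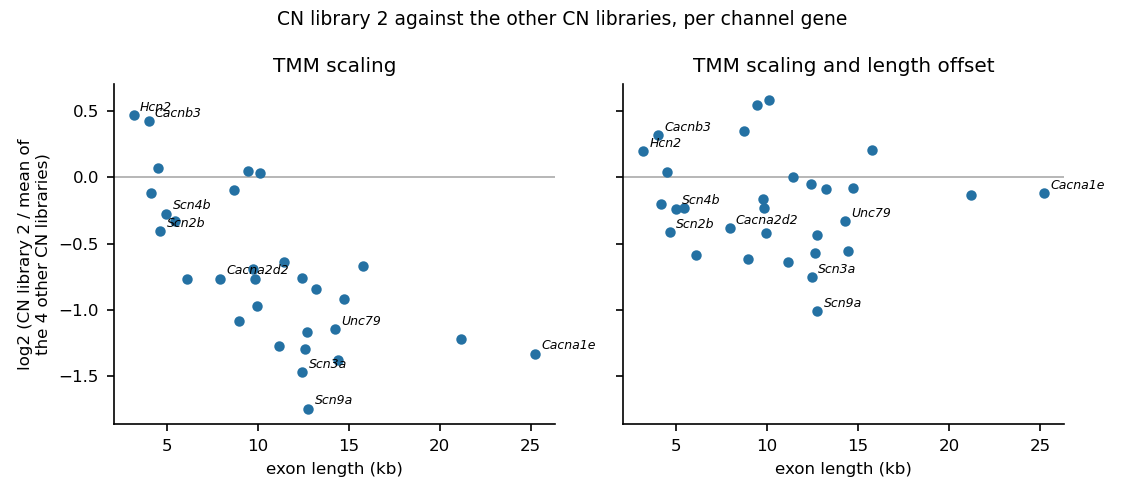
Log2 ratio of CN library 2 over the mean of the other 4 CN libraries for each of the 30 channel genes (points), against exon length in kb, after TMM scaling (left) and after a further correction for length in each library (right). On the left the ratio tends to fall with length and lies between 0.47 for Hcn2 and -1.75 for Scn9a. On the right the long genes are centred at -0.20.

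Levels between genes were compared as CPM per kb of exon in the control group (n = 8, SD). Exon length was the total of all annotated exon bases of a gene, each counted once over its transcripts. The order of genes and the shares below therefore depend on that annotation. Scn4b, the sodium channel beta subunit of spiny neurons that favours resurgent current, stood far above all others at 385 ± 27.6 CPM per kb. Scn2b, a beta subunit bound to the alpha subunit by a disulfide bridge, followed at 98.4 ± 6.19 and Hcn2, the main HCN gene of these libraries, at 61.6 ± 4.06 CPM per kb. Each of these 3 was separated from the next gene in the order by control ranges that did not overlap. From Cacnb3 at 39.5 ± 2.95 down to Cacna1e at 22.5 ± 0.916 CPM per kb, the range of each gene overlapped that of its neighbour, and so did the ranges from Scn8a at 19.5 ± 1.08 to Cacna2d2 at 16.9 ± 1.21 CPM per kb. The lowest were Hcn4 at 1.25 ± 0.0839, Scn9a at 1.15 ± 0.149 and Cacna2d4 at 0.486 ± 0.0281 CPM per kb.

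Within each family the levels per kb gave the following makeup. Of the 5 sodium channel alpha genes, Scn2a, an alpha subunit of axons and dendrites of projection neurons, made up 39.6% of the sum in the CN group, 39.5% in the N group and 39.3% in the control group. Scn8a, the alpha subunit of the distal axon initial segment and nodes, made up 27.2% in the N group and 28.2% in the control group, and Scn1a, which drives fast-spiking interneurons, 19.2% and 17.6%. Scn3a, best known from the embryonic brain, gave 11.97% in N and 13.3% in control libraries, and Scn9a, a gene of peripheral sensory neurons, 2.20% and 1.65%. Scn4b alone was 73.7% of the beta subunits in the N group and 75.2% in the control group, with Scn2b at 19.99% and 19.2% and Scn3b at 6.33% and 5.56%.

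Among the 8 calcium channel alpha1 genes, Cacna1e, the pore of the R-type current, was the most abundant per kb, at 20.7 to 23.9% of the sum in N libraries and 20.5 to 23.5% in control libraries. The low-threshold T-type genes Cacna1h and Cacna1i made up 17.6% and 17.7% in the N group and 18.5% and 18.3% in the control group. Cacna1g, the T-type gene that dominates in the thalamus, was near 2% (2.15% in N and 2.11% in control libraries). Cacna1b and Cacna1a, whose channels trigger transmitter release, made up 14.4% and 13.0% in the N group and 13.7% and 13.1% in the control group. The L-type genes Cacna1c and Cacna1d, which couple calcium entry to transcription, made up 7.58% and 5.32% in the N group and 7.42% and 4.82% in the control group. Of the beta subunits, Cacnb3 made up 35.3% in N and 34.6% in control libraries, Cacnb1 31.2% and 32.6%, Cacnb4, the gene of the lethargic mouse, 27.2% and 26.2%, and Cacnb2, the partner of the cardiac L-type channel, 6.28% and 6.61%. Cacna2d3 held 53.6% of the alpha2delta genes in the N group and 52.8% in the control group, ahead of Cacna2d2 at 24.8% and 26.8% and of Cacna2d1, a binding site of gabapentin, at 21.01% and 19.7%. Hcn2 was 93.4% of the HCN sum in the N group and 93.8% in the control group, with Hcn3 at 4.76% and 4.30% and Hcn4 at 1.84% and 1.91%. The makeup was thus the same to within a few percentage points in N and control libraries, and was described without a test.

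**Figure D2:**
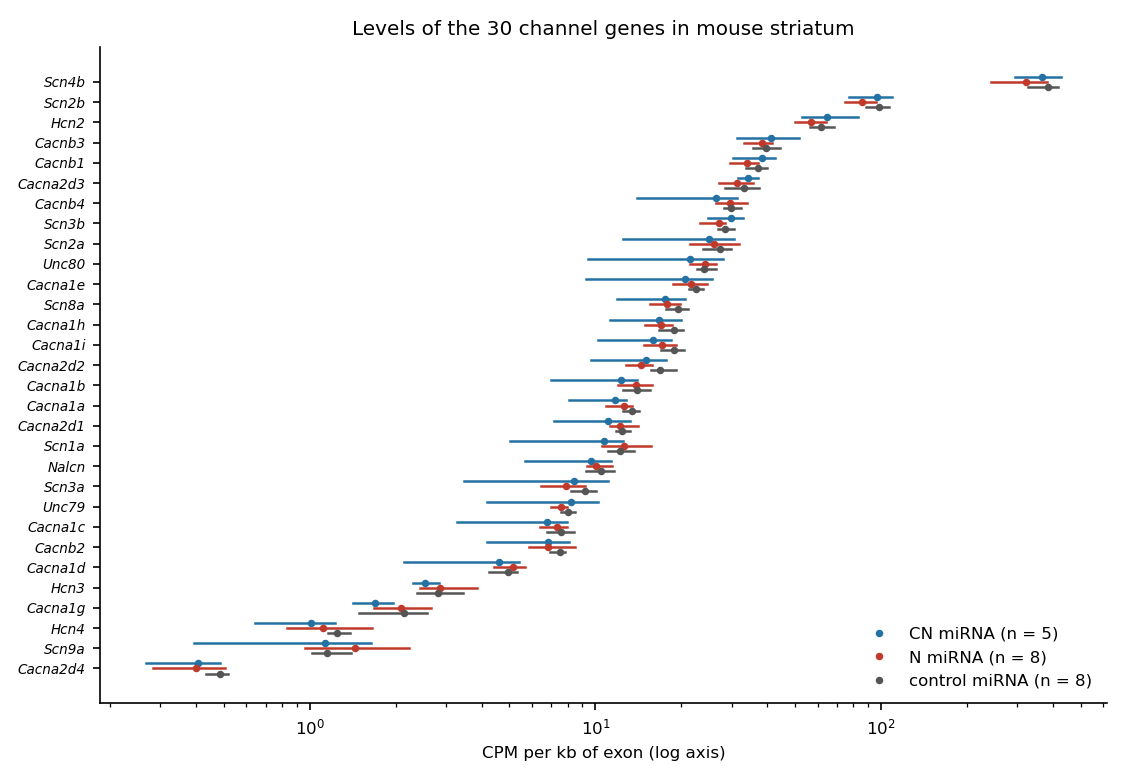
Level of each of the 30 channel genes in CPM per kb of exon (log axis), with the mean (point) and the range over libraries (line) in CN (n = 5), N (n = 8) and control (n = 8) mice, ordered by the control mean. Scn4b leads at 385 CPM per kb in the control group and Cacna2d4 is lowest at 0.486, and the long CN lines to the left come from CN library 2.

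The first comparison sets the N-TAF miRNA against the control miRNA. With all libraries in the fit, no channel gene was called, and none of the 19413 tested genes was (0%). Without CN library 2, whose spread enters the shared error of the fit, Scn2b and Cacna2d2 were called lower in N mice, 2 of 30 beside 0.667% of 19653 tested genes called lower (1% called in either direction). Scn2b stood at 0.873 and Cacna2d2 at 0.855 of the control level, and both are subunits that accompany a pore rather than pores themselves.

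Scn2b ranged between 349 and 446.5 CPM in N libraries with a median of 402, against 414 to 495 CPM with a median of 453 in control libraries. In 6 of 8 N libraries it lay below every control, and in all 8 below the control mean. Its log2 fold change was -0.20 (SE 0.0483, 95% interval -0.30 to -0.10, edgeR adjusted p = 0.0467) without CN library 2, and -0.20 (SE 0.0650, edgeR adjusted p = 0.310) with it. Cacna2d2, the alpha2delta subunit whose loss causes the ducky mouse, ranged between 102 and 125 CPM in N libraries with a median of 115, against 124 to 152 CPM with a median of 132 in control libraries. In 7 of 8 N libraries it lay below every control, with a small overlap from N library 1. Its log2 fold change was -0.23 (SE 0.0491, 95% interval -0.33 to -0.13, edgeR adjusted p = 0.0313) without CN library 2, and -0.23 (SE 0.0865, edgeR adjusted p = 0.387) with it. The fold changes were the same in both fits, and only the error differed. When edgeR was fitted with no CN library at all, both genes were called (Scn2b adjusted p = 0.0454, Cacna2d2 adjusted p = 0.0302), beside 1.14% of all genes. Neither was called with the class of Ambn as a covariate, an enamel gene above 0.5 CPM in some libraries of every group (Scn2b adjusted p = 0.0977, Cacna2d2 adjusted p = 0.0576). When 1 further library was left out in turn, edgeR called Scn2b in 5 and Cacna2d2 in 9 of 20 fits.

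As a description, RefSeq promoter windows (GRCm38.p6, 250 bases before to 50 after the annotated start, plus strand) are shown for the 3 called genes and for Scn4b, the neighbour of Scn2b, with each CG dinucleotide in capitals. Promoter activity was not measured.
Scn2b promoter, chr9:45117626-45117925: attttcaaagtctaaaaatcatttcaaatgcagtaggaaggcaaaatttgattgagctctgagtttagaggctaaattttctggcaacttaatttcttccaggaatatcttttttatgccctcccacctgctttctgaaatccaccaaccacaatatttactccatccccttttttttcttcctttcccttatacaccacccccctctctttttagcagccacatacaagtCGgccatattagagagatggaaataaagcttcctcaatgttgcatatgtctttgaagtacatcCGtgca
Scn4b promoter, chr9:45138374-45138673: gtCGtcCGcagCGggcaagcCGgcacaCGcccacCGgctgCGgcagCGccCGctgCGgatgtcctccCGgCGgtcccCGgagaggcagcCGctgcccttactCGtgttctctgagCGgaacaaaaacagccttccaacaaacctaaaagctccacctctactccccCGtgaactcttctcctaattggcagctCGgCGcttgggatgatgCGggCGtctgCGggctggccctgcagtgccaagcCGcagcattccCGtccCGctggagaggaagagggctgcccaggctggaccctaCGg
Cacna2d2 promoter, chr9:107399630-107399929: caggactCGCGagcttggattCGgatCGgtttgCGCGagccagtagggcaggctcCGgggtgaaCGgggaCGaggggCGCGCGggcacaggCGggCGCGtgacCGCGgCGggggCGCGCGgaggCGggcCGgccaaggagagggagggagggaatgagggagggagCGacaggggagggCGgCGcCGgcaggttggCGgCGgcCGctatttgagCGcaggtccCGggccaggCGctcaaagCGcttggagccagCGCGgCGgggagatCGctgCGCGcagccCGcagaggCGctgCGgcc
Unc79 promoter, chr12:102948609-102948908: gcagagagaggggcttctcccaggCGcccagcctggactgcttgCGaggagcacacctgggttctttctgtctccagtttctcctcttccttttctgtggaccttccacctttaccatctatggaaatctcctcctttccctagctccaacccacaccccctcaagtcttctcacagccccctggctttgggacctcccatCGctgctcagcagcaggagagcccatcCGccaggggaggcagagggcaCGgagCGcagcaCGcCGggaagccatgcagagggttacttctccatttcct
The windows of Scn2b and Scn4b start 20.7 kb apart on chromosome 9, yet they differ in composition. Scn2b has 38.3% G and C with 2 CG dinucleotides, and Scn4b has 66.3% with 26. Cacna2d2 reaches 75.7% with 43 CG dinucleotides, and Unc79 59.7% with 8. Windows were listed for 23 of the 30 genes, 33 windows in all, with a median of 59.7% G and C and 12 CG dinucleotides, against 52.7% and 7 over all 32851 windows. The GC box GGGCGG, searched on both strands like every motif here, was in 39.4% of the channel gene windows and in 35.7% of all windows. The CAAT box CCAAT was in 21.2% and 37.4%, the TATA box TATAAA in 6.06% and 13.6%, and the cyclic AMP response element TGACGTCA in 0% and 1.79%. Of the 4 windows shown, Cacna2d2 held a GC box and Scn4b a CAAT box. A match or its absence is a description of these letters and was not tied to any fold change.

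Scn3a, the alpha subunit of the embryonic brain, was close to the threshold. It ranged between 80.6 and 114.3 CPM in N libraries with a median of 98.6, against 102 to 125 CPM with a median of 114 in control libraries. In 6 of 8 N libraries it lay below every control. The log2 fold change was -0.22 (SE 0.0594, edgeR adjusted p = 0.0656) without CN library 2 and -0.22 (SE 0.139, edgeR adjusted p = 0.687) with it. DESeq2 without CN library 2 called it (adjusted p = 0.0228), beside 3.57% of all genes, as did edgeR with a correction for length (adjusted p = 0.0351), beside 1.11% of all genes.

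Scn4b had the largest absolute spread. It ranged between 1213 and 1905 CPM in N libraries with a median of 1696, against 1625 to 2081 CPM with a median of 1965 in control libraries. N libraries 3, 5 and 8 lay far below the rest at 1247, 1213 and 1368 CPM, N library 7 lay just below every control at 1622 CPM, and the other 4 overlapped the controls. The log2 fold change was -0.26 (SE 0.0992, edgeR adjusted p = 0.386) with all libraries and -0.26 (SE 0.0981, edgeR adjusted p = 0.188) without CN library 2.

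Cacna1h, a T-type pore, ranged between 146 and 180 CPM in N libraries with a median of 167, against 164 to 198 CPM with a median of 189 in control libraries. All 8 N libraries lay below the control mean, 4 of them below every control, and the log2 fold change was -0.16 (SE 0.0513, edgeR adjusted p = 0.118) without CN library 2. Cacna2d4, an alpha2delta gene best known from the retina, ranged between 2.68 and 4.801 CPM in N libraries with a median of 3.90, against 4.11 to 4.91 CPM with a median of 4.63 in control libraries. It lay below every control in 5 of 8 N libraries, with a log2 fold change of -0.28 (SE 0.119, edgeR adjusted p = 0.454) with all libraries. Neither gene passed the test.

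In CN libraries 1 to 5, Scn4b had 1465, 1562, 2132, 2026 and 1928 CPM, Cacna1h 168.5, 109.5, 195, 176 and 168 CPM, and Cacna2d2 129, 76.9, 141, 121.5 and 131 CPM. The libraries other than CN library 2 overlapped both other groups in Scn4b and Cacna1h, and lay above every N library in Cacna2d2 except for CN library 4. Cacna2d4 had 2.53, 3.97, 4.603, 3.88 and 4.315 CPM in CN libraries 1 to 5, and its log2 fold change in CN against control was -0.25 (SE 0.135, edgeR adjusted p = 0.602) with all libraries and -0.26 (SE 0.145, edgeR adjusted p = 0.846) without CN library 2.

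Most of the other channel genes also had values below 0, without passing the test. With all libraries 25 of the 30 had a log2 fold change below 0 in N against control, where 47.9% of all tested genes did, and their median was -0.078 beside 0.0067 over all genes. Unadjusted p was under 0.05 for 5 of the 30, all lower, namely Scn4b, Scn2b, Cacnb1, Cacna2d2 and Cacna2d4 (9.39% of all genes, 4.33% lower). DESeq2 called 0 of the 30 with all libraries (0.381% of all genes) and limma-voom with library weights called 3, Scn2b, Cacna2d2 and Scn3a (1.6% of all genes). Without CN library 2 the unadjusted p was under 0.05 for 14 (16.2% of all genes), 13 of them lower (8.09%). Those 13 covered every family: Scn3a and Scn8a of the sodium channel alphas, Scn2b and Scn4b of the betas, Cacna1a, Cacna1h and Cacna1i of the calcium channel pores, Cacnb1, Cacnb2, Cacna2d2 and Cacna2d4 of their accessory subunits, Unc79 and Hcn2. The single higher one was Scn9a, with 12.3 to 28.4 CPM in N libraries against 13.0 to 17.8 CPM in control libraries, at a log2 fold change of 0.33 (SE 0.133, edgeR adjusted p = 0.222). Scn9a lay above every control in 4 N libraries and below every control in 1. The genes outside that count ranged between -0.090 for Cacna2d3 and 0.059 for Cacna1d in that fit, apart from Hcn4 at -0.16, and Scn1a, Cacna1b, Cacna1c, Cacna1e, Cacna1g, Cacnb3, Cacnb4, Cacna2d1, Nalcn, Unc80, Scn2a, Scn3b and Hcn3 lay between.

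Cell type markers are given beside these genes, since in bulk tissue fewer cells of a type and less RNA per cell cannot be told apart. The 12 spiny neuron markers summed to 9340 to 12100 CPM in N libraries with a median of 11120, against 11360 to 13060 CPM with a median of 12270 in control libraries. All 12 had a log2 fold change below 0 in N against control, with a median of -0.19 and 1 of them called lower without CN library 2. N libraries 5, 3 and 8, the 3 lowest in Scn4b, were also the 3 lowest in this sum, at 9340, 9713 and 9771 CPM. Taken as a share of the sum, Scn4b was 14.6 ± 1.25% in N libraries and 15.6 ± 0.635% in control libraries (SD, n = 8 each). Scn2b was 3.70 ± 0.322% of the sum in N libraries and 3.74 ± 0.243% in control libraries (SD, n = 8 each). Cacna2d2 was 1.06 ± 0.0998% in N libraries and 1.09 ± 0.0633% in control libraries (SD, n = 8 each). Scn3a was 0.913 ± 0.132% in N libraries and 0.933 ± 0.0545% in control libraries (SD, n = 8 each). Each of these shares differed by less than 1 SD of the N libraries, while that of Scn4b differed by more than 1 SD of the control libraries. These ratios were chosen after the values had been seen and were given no test. Cholinergic neuron markers summed to 99.0 to 186 CPM in N libraries against 184 to 201 CPM in control libraries. None of the 7 was at 0. Without CN library 2, 5 of 7 were called lower, beside 0.667% of all genes called lower and 1% called in either direction. Endothelial markers summed to 141 to 202 CPM in N libraries against 185 to 258 CPM in control libraries, with 3 of 7 called lower and none at 0. Neuroblast markers summed to 160 to 256 CPM in N libraries against 124.5 to 155 CPM in control libraries, with 3 of 6 called higher and none at 0. Skeletal muscle markers summed to 37.1 CPM in N library 5, to 37.4 CPM in N library 8 and to 6.745 to 9.32 CPM in the other N libraries, against 5.085 to 7.03 CPM in control libraries, with 1 called higher; N libraries 5 and 8 were 2 of the 3 lowest in Scn4b and in the spiny neuron markers. Choroid plexus markers summed to 32.6 to 3732 CPM in N libraries with a median of 135.5 CPM, against 26.5 to 1043 CPM with a median of 52.8 CPM in control libraries, and 9 of 9 had a log2 fold change above 0. Cortical and hippocampal excitatory markers summed to 322.5 to 736 CPM in N libraries against 301 to 513 CPM in control libraries, with 10 of 10 above 0, and ependymal markers to 28.0 to 91.4 CPM against 39.0 to 46.9 CPM, with 6 of 6 above 0. None of these last 3 lists had a member called. The other 6 lists had medians between -0.11 and 0.17 without CN library 2, with 1 astrocyte marker called higher. The part of these cell types in the values of the channel genes was not tested.

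**Figure D3:**
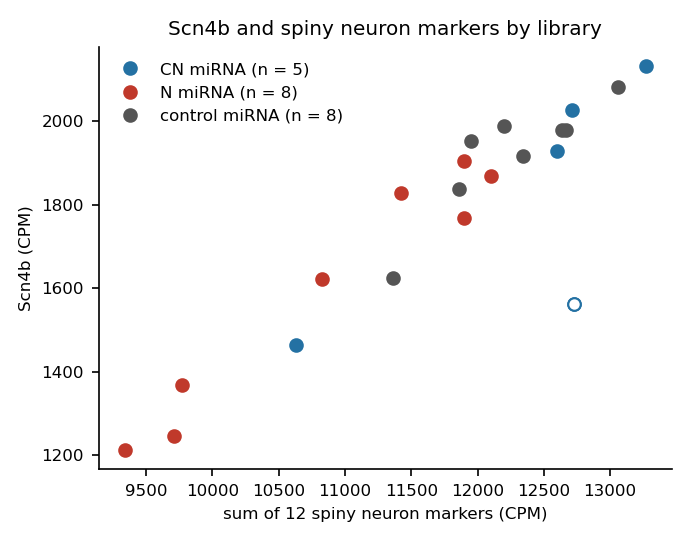
Scn4b level in CPM against the summed level of 12 spiny neuron markers in CPM, 1 point per mouse library of the CN (n = 5, open circle CN library 2), N (n = 8) and control (n = 8) groups; both axes start above 0. The 3 lowest N libraries in Scn4b, at 1213, 1247 and 1368 CPM, are also the 3 lowest in the marker sum, and CN library 1 lies next to them at 1465 CPM.

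CN against control shares its control libraries with N against control, so the values stand side by side and are not independent. With all libraries edgeR called 0 of the 30 channel genes (0% of all genes), DESeq2 called 0 (0% of all genes) and limma-voom called 0 (0.00515% of all genes). Unadjusted p was under 0.05 for 3 (8.36% of all genes), all lower and all calcium channel pores, Cacna1g, Cacna1a and Cacna1i (3.28% of all genes lower). Without CN library 2 edgeR and DESeq2 again called 0 (0% of all genes), and the unadjusted p was under 0.05 for 3 (5.83% of all genes), Unc79 and Scn3b higher and Cacna1g lower.

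The lower values of channel genes in the CN group went largely with library 2. The median over the 30 was -0.15 with all libraries, with 24 below 0, and -0.0078 without it, with 17 below 0, where 49.9% and 51.2% of all genes were below 0. Cacna1a, the pore of P/Q-type channels, had 146, 92.6, 143, 145 and 143 CPM in CN libraries 1 to 5, against 143 to 162 CPM with a median of 155 in control libraries. CN library 2 lay far below every control and the other 4 at the low end of the control range. Its log2 fold change was -0.20 (SE 0.0843, edgeR adjusted p = 0.590) with all libraries and -0.085 (SE 0.0514, edgeR adjusted p = 0.853) without CN library 2. Cacna1i, a T-type pore, had 151, 101, 174, 179 and 181 CPM in CN libraries 1 to 5, against 167 to 201 CPM with a median of 187 in control libraries. CN libraries 1 and 2 lay below every control, and the log2 fold change was -0.24 (SE 0.103, edgeR adjusted p = 0.590) with all libraries and -0.11 (SE 0.0663, edgeR adjusted p = 0.853) without library 2.

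Hcn4, the slowly gating HCN gene best known from the cardiac pacemaker, had 5.60, 3.94, 6.52, 7.501 and 7.23 CPM in CN libraries 1 to 5, against 7.06 to 8.46 CPM with a median of 7.68 in control libraries. CN libraries 1, 2 and 3 lay below every control. The log2 fold change was -0.31 (SE 0.153, edgeR adjusted p = 0.601) with all libraries and -0.18 (SE 0.136, edgeR adjusted p = 0.875) without CN library 2.

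Cacna1g, like Cacna2d3 and Cacna2d4, did not follow the length pattern. It had 15.2, 17.4, 18.9, 14.4 and 19.9 CPM in CN libraries 1 to 5, against 15.1 to 26.0 CPM with a median of 23.1 in control libraries. All 5 CN libraries lay below the control mean, but only CN library 4 lay below every control. The log2 fold change was -0.34 (SE 0.130, edgeR adjusted p = 0.590) with all libraries and -0.34 (SE 0.141, edgeR adjusted p = 0.836) without CN library 2. Cacna1g in N libraries ranged between 17.03 and 26.8 CPM with a median of 20.6, and in CN against N the log2 fold change was -0.30 (SE 0.130, edgeR adjusted p = 0.369) with all libraries and -0.30 (SE 0.141, edgeR adjusted p = 0.2995) without CN library 2. The summed cortical and hippocampal excitatory markers were 325 to 364.5 CPM in CN libraries without library 2, against 301 to 513 CPM in control libraries, and the thalamic markers 137 to 155 CPM against 143 to 174.5 CPM, with none of the 10 and of the 6 at 0. In control libraries Lmo3 alone averaged 194 CPM of the cortical and hippocampal sum, and Rora and Prkch 65.0 and 62.1 CPM of the thalamic sum, so the sums mostly follow these genes. Without CN library 2, 7 of the 10 and 5 of the 6 had a log2 fold change below 0 in CN against control. The medians were -0.69 and -0.18, none was called, and 51.2% of all genes were below 0. The part of these markers in the Cacna1g values was not tested.

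**Figure D4:**
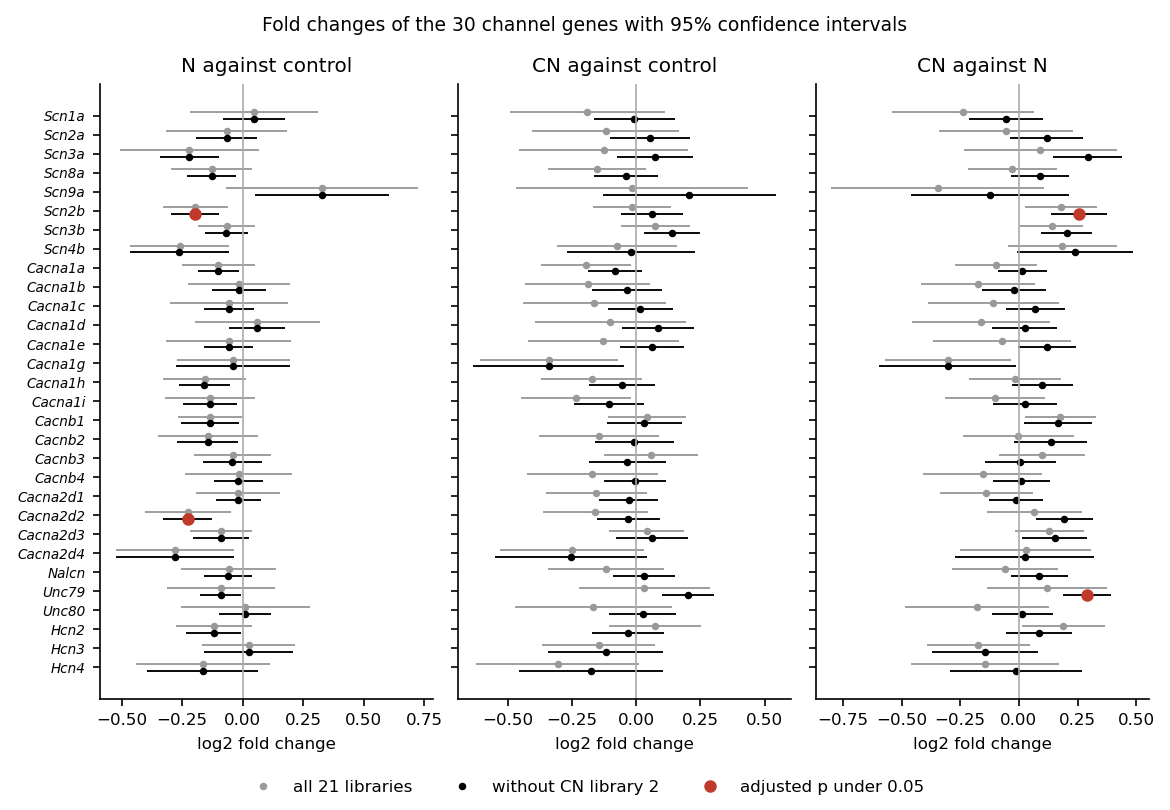
Log2 fold change of each of the 30 channel genes with its 95% confidence interval in N against control, CN against control and CN against N (left to right), from the fit of all 21 libraries (grey) and without CN library 2 (black). Red points mark an adjusted p under 0.05: Scn2b at -0.20 and Cacna2d2 at -0.23 in N against control, and Scn2b at 0.26 and Unc79 at 0.29 in CN against N, all without CN library 2.

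CN against N sets the Taf1 miRNAs against each other, and it shares its N libraries with N against control. With all libraries edgeR called 0 of the 30 (0% of all genes), DESeq2 called 0 (0.886% of all genes) and limma-voom called 2 (0.649% of all genes), Unc79 (adjusted p = 0.0338) and Scn3b (adjusted p = 0.0436). Unadjusted edgeR p was under 0.05 for 5 (11.8% of all genes), Scn2b, Hcn2, Cacnb1 and Scn3b higher and Cacna1g lower. Without CN library 2, edgeR called 2 of the 30, Unc79 and Scn2b, both higher in CN mice (0.356% of all genes called, 0.26% higher). DESeq2 then called 4, adding Scn3a and Scn3b (3.05% of all genes), and the unadjusted edgeR p was under 0.05 for 8 (15.7% of all genes). Those 8 were Scn2b, Scn3a, Scn3b, Cacnb1, Cacna2d2, Cacna2d3 and Unc79, higher, and Cacna1g, lower. The median over the 30 was -0.057 with all libraries, with 19 below 0 where 50% of all genes were, and 0.078 without CN library 2, with 7 below 0 where 52.9% of all genes were. Its sign turned with that library, while the median over all genes was 3.4e-05 with all libraries and -0.011 without it. The CN libraries that remain include CN library 1, which had the highest rho with length of all libraries, 0.31. With the correction for length in each library and without CN library 2, the median over the 30 was 0.024, with 12 below 0. The median over all genes was then -0.0071.

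Unc79, an auxiliary protein that the sodium leak channel needs to reach the surface and conduct, had 146, 59.4, 123.5, 135 and 122 CPM in CN libraries 1 to 5. N libraries ranged between 99.6 and 113 CPM with a median of 109, and control libraries between 108 and 121 CPM with a median of 115. CN libraries 1, 3, 4 and 5 lay above every N and every control library, and CN library 2 below all of them. In CN against N the log2 fold change was 0.29 (SE 0.0501, 95% interval 0.19 to 0.39, edgeR adjusted p = 0.0119) without CN library 2 and 0.12 (SE 0.123, edgeR adjusted p = 0.713) with it. In CN against control it was 0.20 (SE 0.0502, edgeR adjusted p = 0.780) without CN library 2 and 0.030 (SE 0.123, edgeR adjusted p = 0.940) with it. In a fit of the CN and N groups alone without CN library 2, neither Unc79 (adjusted p = 0.106) nor Scn2b (adjusted p = 0.121) was called.

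The proteins of the leak channel complex have nearly the same exon length, 14715 bases for the pore Nalcn, 14425 for Unc80 and 14265 for Unc79. In CN library 2 they lay at log2 ratios of -0.92 for Nalcn, -1.15 for Unc79 and -1.38 for Unc80 over the mean of the other 4 CN libraries. Unc79 made up 19.9 to 21.4% of the 3 genes per kb in CN libraries without library 2 and 21.7% in CN library 2, against 16.6 to 19.3% in N libraries and 17.8 to 19.7% in control libraries. All 5 CN libraries lay above every N and every control library in this share, which was described and not tested. In CN against N, Nalcn had a log2 fold change of 0.087 (SE 0.0589, edgeR adjusted p = 0.484) without CN library 2 and -0.059 (SE 0.109, edgeR adjusted p = 0.850) with it. Unc80 had 0.014 (SE 0.0634, edgeR adjusted p = 0.943) without CN library 2 and -0.18 (SE 0.148, edgeR adjusted p = 0.644) with it, so the signs of both turned with that library. Unc80 made up 48.9% in CN library 2 and 53.3 to 56.4% in the other CN libraries, against 55.7 to 59.6% in N libraries and 55.6 to 57.6% in control libraries. Nalcn made up 29.5% in CN library 2, above every N and control library, and 23.0 to 25.35% in the other CN libraries, against 22.6 to 26.3% in N libraries and 23.2 to 25.3% in control libraries. In CN library 2 the high share of Unc79 thus stood beside the lowest Unc79 level of any library, with Unc80 lower still against the other CN libraries.

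Scn2b had 509, 359, 453.5, 473 and 469 CPM in CN libraries 1 to 5, against 349 to 446.5 CPM in N libraries. CN libraries 1, 3, 4 and 5 lay above every N library. The log2 fold change in CN against N was 0.26 (SE 0.0585, 95% interval 0.14 to 0.38, edgeR adjusted p = 0.0467) without CN library 2 and 0.18 (SE 0.0738, edgeR adjusted p = 0.348) with it. Against control, Scn2b in CN mice had a log2 fold change of 0.060 (SE 0.0589, edgeR adjusted p = 0.892) without CN library 2 and -0.016 (SE 0.0741, edgeR adjusted p = 0.947) with it, so its sign turned with that library.

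**Figure D5:**
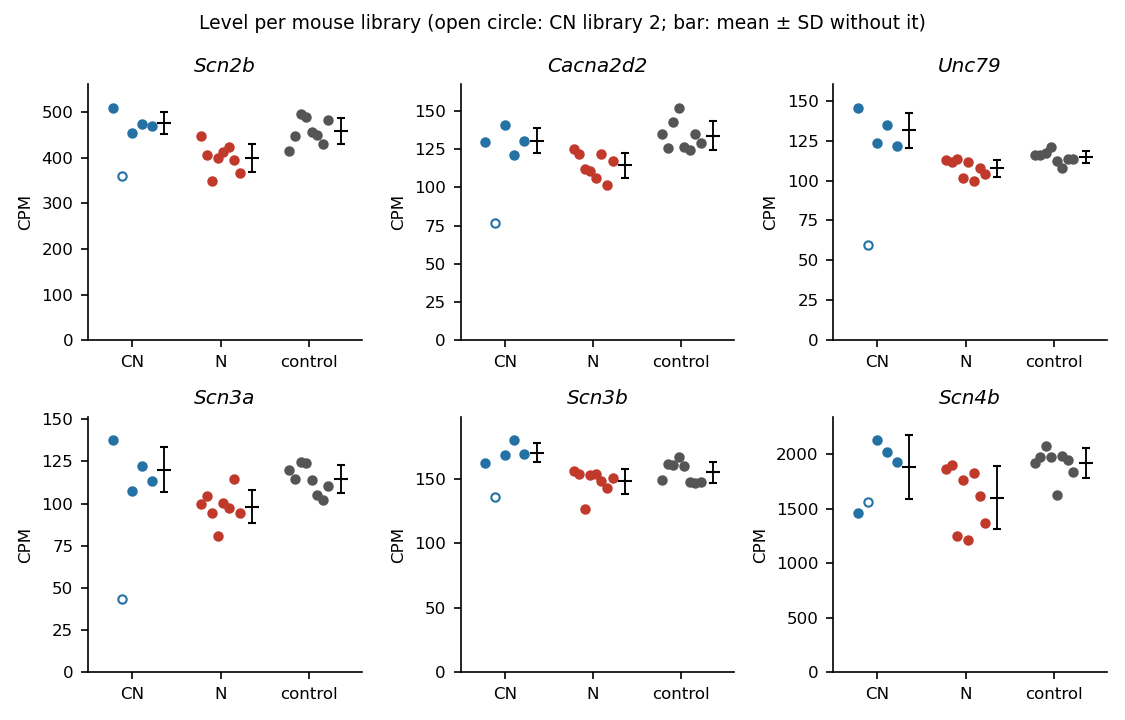
Level in CPM of 6 channel genes in each mouse library of the CN, N and control groups (points; open circle, CN library 2), with mean ± SD beside each group, taken without CN library 2. The means of Scn2b and Cacna2d2 are lowest in the N group, while the lowest single value of Cacna2d2 is CN library 2 at 76.9 CPM. Unc79 is at 122 to 146 CPM in 4 CN libraries and at 59.4 CPM in CN library 2. The 3 lowest N points of Scn4b are at 1213, 1247 and 1368 CPM.

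Scn3a and Scn3b were just short of the edgeR threshold in CN against N without CN library 2. Scn3a had 138, 43.2, 107, 122 and 113 CPM in CN libraries 1 to 5, against 80.6 to 114.3 CPM in N libraries. CN libraries 1 and 4 lay above every N library, and the log2 fold change was 0.29 (SE 0.0719, edgeR adjusted p = 0.0575), against 0.092 (SE 0.158, edgeR adjusted p = 0.839) with all libraries. Scn3b, a beta subunit without the disulfide bridge, had 162.5, 136, 169, 180 and 169 CPM in CN libraries 1 to 5, against 127 to 156 CPM with a median of 152 in N libraries and 147 to 167 CPM with a median of 154 in control libraries. CN libraries 1, 3, 4 and 5 lay above every N library, and the log2 fold change was 0.20 (SE 0.0532, edgeR adjusted p = 0.0711), against 0.14 (SE 0.0648, edgeR adjusted p = 0.396) with all libraries. In CN against control it was 0.14 (SE 0.0533, edgeR adjusted p = 0.836) without CN library 2 and 0.074 (SE 0.0649, edgeR adjusted p = 0.689) with it.

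Cacnb1, an intracellular beta subunit also known from skeletal muscle, had 137, 180, 180, 175 and 193 CPM in CN libraries 1 to 5, against 134 to 168 CPM with a median of 154 in N libraries. Apart from CN library 1 the CN libraries lay above every N library, and the log2 fold change was 0.18 (SE 0.0732, edgeR adjusted p = 0.354) with all libraries and 0.17 (SE 0.0711, edgeR adjusted p = 0.251) without CN library 2. Hcn2 had 210.4, 266.5, 201, 168.5 and 188 CPM in CN libraries 1 to 5, against 159 to 205.5 CPM with a median of 183 in N libraries. CN library 2 was the highest of all, and the log2 fold change was 0.19 (SE 0.0863, edgeR adjusted p = 0.390) with all libraries and 0.086 (SE 0.0678, edgeR adjusted p = 0.563) without it.

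The 3 sodium channel beta genes lay above 0 in CN against N in both fits, between 0.14 and 0.19 with all libraries and between 0.20 and 0.26 without CN library 2. The spiny neuron markers also lay above 0 in CN against N, 12 of 12 with a median of 0.17 without CN library 2, and summed to 10630 to 13270 CPM in the CN libraries against 9340 to 12100 CPM in the N libraries. As a share of that sum, Scn2b was 3.91 ± 0.603% in CN libraries without library 2 (SD, n = 4), 3.69 ± 0.715% in all CN libraries (SD, n = 5) and 3.70 ± 0.322% in N libraries (SD, n = 8). Without CN library 2, Scn4b was 15.3 ± 1.05%, Cacna2d2 1.07 ± 0.109% and Scn3a 0.991 ± 0.212% (SD, n = 4). These shares were not tested. Cholinergic markers summed to 180 to 199 CPM in CN libraries without library 2 against 99.0 to 186 CPM in N libraries. Leaving out CN library 2, cortical and hippocampal excitatory markers had a median of -1.09, with 8 of 10 below 0, and summed to 325 to 364.5 CPM in CN libraries against 322.5 to 736 CPM in N libraries. Choroid plexus markers had a median of -0.90, with 9 of 9 below 0, and summed to 121 to 517.5 CPM in CN libraries against 32.6 to 3732 CPM in N libraries. Skeletal muscle markers had a median of -0.85, with 5 below 0, and summed to 2.91 to 6.61 CPM in CN libraries against 6.745 to 37.4 CPM in N libraries. Neuroblast markers had a median of -0.26, with 6 of 6 below 0, and interneuron markers other than cholinergic a median of -0.32, with 7 of 8 below 0. The other 7 lists had medians between -0.24 and 0.14, and no marker of any list was called (0.356% of all genes were). The part of these cell types in the values of the channel genes was not tested.

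Proteins that bind these channels were followed as a second list of 23 genes, of which 22 had a row, and all 22 were tested. With all libraries 0 of the 22 were called in each of the 3 comparisons (0% of all genes in each). In N against control the smallest p belonged to Pex5l, the auxiliary subunit of HCN channels, at -0.25 (SE 0.0909, edgeR adjusted p = 0.357), Stac2, an adaptor of L-type channels, at 0.37 (SE 0.152, edgeR adjusted p = 0.440) and Calm3, a calmodulin gene, at -0.14 (SE 0.0729, edgeR adjusted p = 0.566). Pex5l had 85.2 to 136 CPM in N libraries against 121 to 156 CPM in control libraries. In CN against control the smallest p were those of Pex5l at -0.31 (SE 0.104, edgeR adjusted p = 0.590), of the active zone scaffold Rims1 at -0.24 (SE 0.126, edgeR adjusted p = 0.602) and of Nfasc, a protein of the axon initial segment, at -0.20 (SE 0.107, edgeR adjusted p = 0.602). In CN against N they were those of Calm3 at 0.25, Rem2, which inhibits calcium channels, at 0.31 and Stac at -0.61 (edgeR adjusted p = 0.235, 0.299 and 0.392).

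Without CN library 2 only Stac2 was called among the 22, lower in CN against N at -0.64 (SE 0.134, edgeR adjusted p = 0.0355), beside 0.356% of all genes. It had 20.4, 44.2, 21.4, 18.7 and 22.6 CPM in CN libraries 1 to 5, against 25.03 to 43.3 CPM in N libraries and 19.1 to 32.0 CPM in control libraries. The 4 CN libraries lay below every N library, while CN library 2, left out of this fit, lay above every N library, so the call rests on leaving it out. Of the alpha subunits of other tissues, 7 had a row and 5 were tested with all libraries (6 without CN library 2), and none was called. Scn7a, the sodium-sensing alpha gene of glia, had the smallest p of these in N against control, at 0.40 (SE 0.201, edgeR adjusted p = 0.555).

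Reads that a pair of genes could share touched few of these values. Exons of Hcn3 overlapped those of an antisense gene over 17.1% of their bases, those of Cacnb4 over 16.0% and those of Cacnb2 over 7.32%, and the others over 4.67% or less. Of the called genes, Cacna2d2 shared 1.03% with an antisense gene, Unc79 shared 0.589% with a gene on its own strand, and Scn2b shared none. The sources used here do not state whether counting used the strand, so for Hcn3, Cacnb4 and Cacnb2 reads of the antisense partner cannot be told apart.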

How the data were processed

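RNA of the mouse striatum was extracted with Trizol and sequenced on an Illumina NovaSeq, per the labels. The submitters' processing notes name STAR, featureCounts and edgeR with no versions, and a human build, GRCh38, although the gene IDs are mouse, so the authors' build is unsettled and no coordinates are taken from their files. The promoter windows are those of RefSeq on GRCm38.p6. The deposited values are whole-number counts per gene and library, not normalised. Rows whose gene ID matched no symbol (123, holding 0.0704% of counts) stayed in the table.

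Counts of 21 libraries in 3 groups were scaled by TMM, filtered with filterByExpr and fitted in 1 model with edgeR 4.0.16 (robust quasi-likelihood, R 4.3.3), with Benjamini-Hochberg adjustment over all 19413 tested genes, and again without CN library 2 over 19653. Depths were 24876988 to 35585689 counts. Alternatives were DESeq2 1.42.0, limma 3.58.1 (voom with quality weights), other scaling and filtering, a length offset per library (lowess span 0.3, GENCODE exon lengths), an Ambn class (0.5 CPM) and leaving out each library. The code was tested on simulated data. The 30 genes, the lists and the rule for naming genes were chosen with earlier results of these data known. All 30 are named by role, and values are given by library for those called in a comparison, filled up to the 4 of smallest p, as the range and median in groups of 8. For partner lists the called genes are named, otherwise the 3 of smallest p. Nothing states that the mice came from separate litters. The p-values set group differences against the spread between these mice, which the fit of the 3 groups shares among them. Replicate numbers follow deposit order. The closest libraries of 1 group, CN 4 and 5, differed by a chi-square of 5.91 per degree of freedom, more than counting noise.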

Additional observations from a re-analysis of the deposited data

Results flagged for a closer look

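In groups of 5 or 8 libraries, 12 of 90 sets of values held a library whose gap to its neighbours was large beside the range of its group, where chance gives about 1 in 20. Of these, 10 came from CN library 2, always as its lowest value: Scn1a at 56.0 CPM, Cacna1a at 92.58 CPM, Cacna1b at 69.31 CPM, Cacna1c at 69.55 CPM, Cacna1d at 26.88 CPM, Cacna1e at 234.7 CPM, Cacnb2 at 55.16 CPM, Cacnb4 at 125.1 CPM, Nalcn at 83.38 CPM and Unc79 at 59.43 CPM. The other 2 came from the N group. All genes share the same libraries, so the 90 sets are not independent, and their count was not tested against the rate of 1 in 20. Scn3b was low in N library 3 at 126.6 CPM, and Hcn3 was high in N library 5 at 15.94 CPM, where 17.1% of its exon bases are shared with an antisense gene.

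The 2 miRNAs differed in the test of CN against N without CN library 2 for Scn2b at a log2 fold change of 0.2564 and for Unc79 at 0.2909 (edgeR adjusted p = 0.0467 and 0.0119). Of the 5 CN libraries 4 lay above the N mean for each gene, and CN library 2 lay below it, at 359 CPM against 399.8 CPM for Scn2b and 59.4 CPM against 108 CPM for Unc79. With all libraries neither was called (edgeR adjusted p = 0.348 and 0.713), nor in a fit of the CN and N groups alone without CN library 2.

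The mouse whose label names no injection lay above all 8 control libraries in Cacna1d at 69.85 CPM and in Cacnb2 at 104.4 CPM. It lay below all 8 in Cacna2d2 at 121 CPM, in Cacna2d4 at 2.82 CPM and in Hcn4 at 7.04 CPM. No value was tested, and the mouse belongs to no group.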

How the results depend on the processing

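No paired analysis was possible because the titles carry a different animal number for each mouse and the replicate numbers follow deposit order only. With all libraries, channel genes called in N against control were 0, but 2 in a fit of the 2 groups alone and 3 with limma-voom, and 0 to 2 when a library was left out, with 2 only without CN library 2. Its median of -0.078 became -0.029 above and -0.12 at or below 0.5 CPM of Ambn (an enamel gene that split every group, chosen after seeing the data). None was called in CN against control in any of these fits. Its median log2 fold change of -0.15 became -0.049 with limma-voom, -0.057 with the length offset and -0.0096 at or below that Ambn level, where CN library 3 was the lone CN library and was assumed to vary like the other groups, and -0.19 to -0.0078 when a library was left out. In CN against N, 2 genes were called with limma-voom and 0 to 2 when a library was left out. Its median of -0.057 became 0.053 with limma-voom, 0.026 with the length offset, -0.15 above and 0.078 at or below that Ambn level, again with CN library 3 alone, and -0.12 to 0.078 when a library was left out.

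Without CN library 2, the 2 calls of N against control became 0 with an Ambn covariate and 0 to 3 when a further library was left out, with 0 without N library 3, 4, 5 or 8 or control library 2, 3, 4, 7 or 8. Over those 20 fits Cacna2d2 was called in 9 (adjusted p 0.00884 to 0.0705) and Scn2b in 5 (0.0121 to 0.0997). The 2 calls of CN against N became 1 with an Ambn covariate, 0 in a fit of the 2 groups alone and 0 without CN libraries 1 and 2. They became 1 with the length offset without both libraries, 3 with that offset without CN library 2 alone (Scn2b, Unc79 and Scn3a) and 4 with DESeq2 (3.05% of all genes). When a further library was left out they became 0 to 4, with 0 without CN library 1 or 4. Over those 20 fits Unc79 was called in 18 (0.00590 to 0.0692) and Scn2b in 6 (0.0167 to 0.136). Apart from DESeq2, the shares of all genes called in these fits of CN against N are not given here. The cause of these changes was not tested, and no called fold change turned its sign.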
